A study of Bos taurus with 11 samples.

Results

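The WNT signalling pathway was followed in the endometrium of subfertile and fertile cows on day 7 of the oestrous cycle. Its members were all non-control probes of the array that the files name as a WNT ligand, an FZD receptor, an SFRP or DKK antagonist, or as any of a fixed set of further co-receptors, agonists, cytoplasmic proteins and nuclear factors of the pathway. These were 105 of 43653 probes, for 55 of the 25325 gene names that the files give, and 87 probes of 46 genes were bright enough to be tested. ZNRF3 and DVL1, which were on the same set, had no probe under that name. The names come from the design of the array: of 52 member probes whose accession was found in a current gene table, 51 still carry the same symbol.

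The samples were uterine biopsies of 5 subfertile cows and 6 fertile cows, each a separate animal with its own array. The subfertile cows had not conceived at any of 3 transfers or inseminations in a row, although no fault of the genital tract was seen and their cycles looked normal. The fertile cows had conceived within 3 attempts and again at the next embryo transfer after sampling. The labels name no treatment or genetic change, and breed and age are not given in the sources used here. All values are log2 processed signals, with the 75th percentile of each array set to 0, and differences are subfertile minus fertile with their standard error (SE). Adjusted p-values come from limma, a linear model that shares the estimate of the spread between probes, with Benjamini-Hochberg adjustment over all 31877 probes tested, and a probe was called where its adjusted p was below 0.05. The number of arrays limits the precision.

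The groups differed in more than the pathway. The median signal was 54.3 to 92.7 on subfertile arrays and 161 to 452 on fertile arrays, and 68.5% ± 3.53 (SD, n = 5) of probes in subfertile and 74.2% ± 1.88 (SD, n = 6) in fertile cows passed the scanner software's test for being well above background. Subfertile and fertile arrays shared no slide or scan day that is known. All 5 subfertile arrays were scanned on 1 day, and the fertile arrays of known day on 3 others. Group, slide and day can therefore not be told apart by any test given here. In the slide and day models named hereafter, slide or day entered the fit as a random block. A call kept in these models does not part the group from slide or day, since each slide and day of known arrays holds a single group. Epithelial markers were higher on 8 of 15 genes and lower on 0, and their mean, centred on all cows, was 0.05 to 0.43 in subfertile cows and -0.76 to -0.05 in fertile cows. Stromal markers passed on 4 of 12 genes, 2 in each direction, with a mean of -0.38 to 0.14 in subfertile cows and -0.01 to 0.22 in fertile cows. Ciliated cell markers were higher on 4 of 9 genes and lower on 0, with a median difference of 1.13, smooth muscle markers higher on 2 of 8 (median 0.86) and endothelial markers on 2 of 6 (median 0.19), both with 0 lower. Leucocyte markers passed on 2 of 8, 1 in each direction, where 22.1% of all genes passed. The epithelial minus the stromal mean was 0.40 ± 0.30 (SD, n = 5) in subfertile cows and -0.34 ± 0.33 (SD, n = 6) in fertile cows, with no overlap (difference 0.74, p = 0.00216 by a two-sided exact permutation test over 462 splits, which can give none smaller).

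WNT proteins are secreted ligands that bind Frizzled receptors together with the co-receptors LRP5 and LRP6. Receptor binding stops a cytoplasmic complex of AXIN, APC and GSK3B from marking β-catenin for destruction, and β-catenin then enters the nucleus and acts with LEF and TCF factors on target genes. Secreted proteins of the SFRP, DKK and WIF families hold the ligands or the co-receptors back, and in the uterus the pathway takes part in gland formation and in exchange between stroma and epithelium.

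Across the pathway the endometrium of subfertile cows had lower SFRP1, SFRP4 and DKK3 and higher WIF1 and SFRP5, all grouped here by family as secreted antagonists. The ligand WNT16, the receptor FZD1 and the nuclear factor TCF7 were also lower on their brightest probes. AXIN1 and AXIN2, scaffolds of the complex that destroys β-catenin, were higher, as were the nuclear adaptor BCL9 and, on 1 of its 2 probes, the ligand WNT5A. On their brightest probes 6 genes were higher, 6 were lower and 34 did not pass (26.1% called, against 22.1% of all genes, 14.2% higher and 7.89% lower), with a median difference of -0.05 over the 46 genes and 0.06 over the 18445 genes of the array taken the same way. Of the 87 tested member probes 12 were higher and 13 lower, 28.7%, where 22.2% of all tested probes were called, 14.8% higher and 7.38% lower. Overlap between the groups was absent on 14 member probes, 16.1%, where 13.5% of all tested probes showed no overlap. The share of higher calls among members, 13.8%, lay near that of the array, and that of lower calls, 14.9%, was above it. Of the lower calls 4 were on probes that fertile arrays alone carried past the filter (well above background on at least 5 of 11 arrays), being well above background in at most 2 subfertile cows: the dim probes of WNT5B, SFRP4 and TCF7L2 and the second of PYGO1. In all, 8 member probes were carried in this way, of which 4 were called, all lower. Such a probe was let in by its fertile signal, so that its p, its lack of overlap and its count support nothing. On the 68 member probes well above background on all 11 arrays, 11 were higher and 9 lower, 16.2% and 13.2%, where 17.1% and 8.18% of all such probes were. With quantile normalization 12 member probes were higher and 14 lower, where 10.2% and 9.87% of all probes were, and with a different background correction (normexp, fitted to the mean and local background signals) 40 were higher and 9 lower, where 46.8% and 6.78% of all probes were, 53.6% in all. How many of the 7067 calls over all probes the slide and day models kept was not counted, but the probes that passed in each model can be set side by side. In the slide model 10 of the 87 tested member probes were higher and 6 lower, where 3672 of all tested probes passed (11.5%). In this way 16 of the 25 member calls were kept. In the day model 3 of the 87 were higher and 3 lower, where 977 of all tested probes passed (3.06%), and 6 of the 25 member calls were kept. These 6 were AXIN1, the brighter WNT5A probe and the second DVL2 probe, and 3 of the probes that fertile arrays carried (WNT5B, PYGO1 and TCF7L2).

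**Figure D1:**
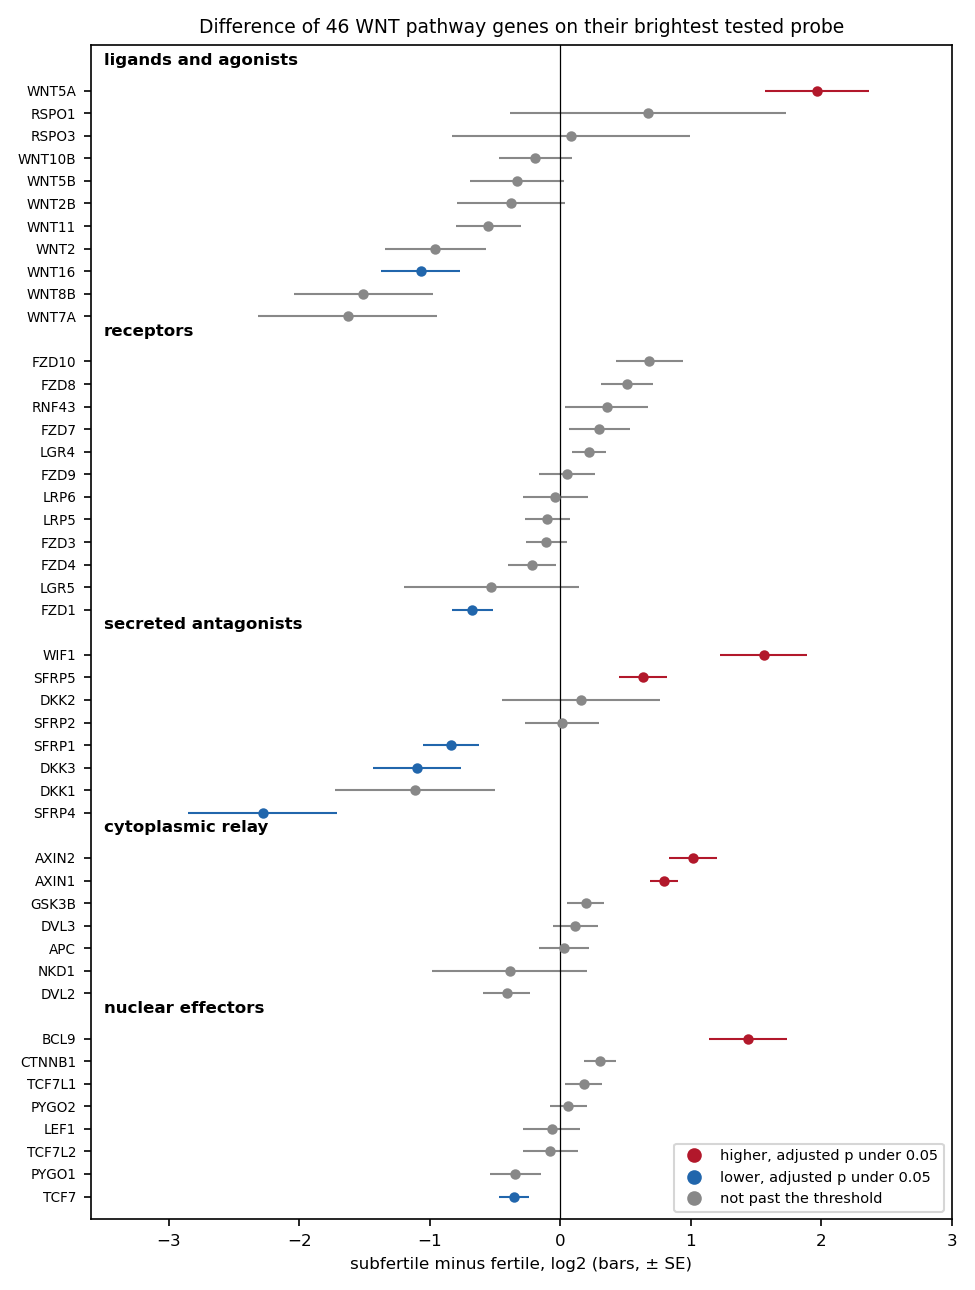
Difference between subfertile and fertile cows (log2, subfertile minus fertile, n = 5 and n = 6) for each of the 46 tested genes on its brightest tested probe, grouped by role. Points are differences and bars are ± SE, with colour for calls at an adjusted p below 0.05. TCF7L2 is shown on a probe whose accession now belongs to TCF4. Of the secreted antagonists 5 of 8 passed, of the receptors 1 of 12 and of the ligands and agonists 2 of 11, where 22.1% of all genes passed.

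The ligands were mostly faint, and those that passed did not move one way. Of 19 genes, 17 WNT ligands and the agonists RSPO1 and RSPO3, 8 were well above background on at most 2 arrays and were not tested: WNT1, WNT3, WNT3A, WNT7B, WNT8A, WNT9A, WNT9B and WNT10A. Among the 11 tested genes WNT5A was higher and WNT16 lower on the brightest probe, and 9 did not pass (18.2% called, against 22.1% of all genes). The median difference of these 11 was -0.38, with -0.43 under quantile normalization and 0.24 under normexp correction. Normexp correction moved the median over all tested probes to 0.33, against 0.07, and relative to that median the ligands were at -0.45, -0.42 and -0.09.

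WNT5A, a ligand best known for β-catenin-independent signalling, read 1.71, 1.24, 1.75, 1.19 and 1.34 in subfertile cows 1 to 5 on its brighter probe. In fertile cows the lowest was -1.45, the median -0.85 and the highest 0.72. The subfertile cows all lay above the fertile cows, a difference of 1.97 ± 0.40 (SE, adjusted p = 0.00616), or 3.91-fold, which was also past the threshold in the slide (adjusted p = 0.00922) and day models (adjusted p = 0.0477). Fertile cows 2 and 5, which shared a slide, were the highest of their group, and lay 2.04 above fertile cows 1 and 3 on another slide. The dimmer WNT5A probe did not pass, at -0.35 ± 0.28 (SE, adjusted p = 0.408), with overlapping groups. The probes are shown because their readings part. They lie on chr22:46592073-46592132 and chr22:46582066-46582125 of the bovine build HGSC Btau_3.1, plus strand, as the files place them. Exons and UTRs are not assigned, since no annotation of that build was used here. The first 30 of the 60 bases of each are given 5′ to 3′, with no capitals.
WNT5A brighter probe: ggccccgctcccaggacccacttatttata
WNT5A dimmer probe: gttgcttgggggacggctggaagggcaatg

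WNT5B is a close relative of WNT5A. The dimmer probe stood well above background on 0 of 5 subfertile and 6 of 6 fertile arrays, and read -6.90, -7.63, -7.78, -6.87 and -7.35 in subfertile cows 1 to 5, while in fertile cows the lowest was -5.99, the median -5.16 and the highest -3.91. The mean signals were -7.31 ± 0.41 (SD, n = 5) in subfertile and -5.04 ± 0.86 (SD, n = 6) in fertile cows. On processed signal alone the dimmer probe was at least 1.69-fold lower in subfertile cows. This bound sets the dim arrays at the lowest signal well above background, and it does not hold with normexp correction. The adjusted p of 0.00269 sets readings not above background against signal and is no support for the difference. With normexp correction the same probe was at 0.59, 0.25 above the median of all probes, and past the threshold in the other direction (adjusted p = 0.00547). The brighter WNT5B probe was at -0.33 ± 0.36 (SE, adjusted p = 0.532), read -2.88, -4.11, -2.62, -2.23 and -3.55 in subfertile cows, and in fertile cows the lowest was -3.74, the median -2.74 and the highest -2.04. Its groups overlapped, so that no WNT5B difference is shared by both probes and both corrections. The probes are shown because they differ in base composition: 55.0% of the bases of the brighter probe and 20% of those of the dimmer are G or C. They lie on chr5:115055262-115055321 and chr5:115060282-115060341 (Btau_3.1, plus strand), and their first 30 bases follow with no capitals.
WNT5B brighter probe: aagaacttcgccaagggctcagaggaacag
WNT5B dimmer probe: tctatataaatatattttatatttgtataa

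WNT16, a ligand studied mostly in bone in human and mouse, read -2.90, -2.56, -2.14, -2.13 and -2.72 in subfertile cows 1 to 5, while in fertile cows the lowest was -2.09, the median -1.57 and the highest -0.58. The groups did not overlap, but fertile cows 2 and 6 lay just above subfertile cows 3 and 4. The difference was -1.07 ± 0.30 (SE, adjusted p = 0.0267). It did not pass with normexp correction (-0.62, adjusted p = 0.0571), in the slide model (adjusted p = 0.0578), or on leaving out subfertile cow 1, 2 or 5 or fertile cow 1 (adjusted p up to 0.0616).

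WNT2, WNT7A, WNT8B and WNT11 were at -0.96 ± 0.39, -1.63 ± 0.69, -1.51 ± 0.53 and -0.55 ± 0.25 (SE) and did not pass, with adjusted p of 0.0986, 0.109, 0.0624 and 0.131. WNT2, a ligand that acts through β-catenin, read -1.75, 0.22, 0.38, 0.11 and 0.06 in subfertile cows 1 to 5, with cow 1 alone far down, and in fertile cows the lowest was -0.08, the median 0.85 and the highest 1.29. WNT7A, known in the mouse from the uterine lining epithelium, was well above background on 2 of 5 subfertile and 6 of 6 fertile arrays, and WNT8B on 3 of 5 and 6 of 6. The remaining WNT2B and WNT10B probes lay between -0.38 and -0.19.

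RSPO1 and RSPO3, which strengthen WNT signalling by protecting the receptors, varied more between cows than any other ligand tested. RSPO1 read 2.17, -4.08, -0.87, -3.43 and -1.96 in subfertile cows and RSPO3 read -0.25, -4.27, -4.98, -4.69 and -4.13. In fertile cows the lowest was -3.72, the median -2.57 and the highest 0.59 for RSPO1, and the lowest was -5.54, the median -3.78 and the highest -1.49 for RSPO3. Subfertile cow 1 and fertile cow 4 were the highest of their groups for both genes, and the differences of 0.67 ± 1.06 (SE, adjusted p = 0.681) and 0.08 ± 0.91 (SE, adjusted p = 0.959) were far inside the spread. NKD1, a feedback inhibitor in the cytoplasm, was also highest in these cows, at -2.73 in subfertile cow 1 and -2.78 in fertile cow 4. The mean of 8 smooth muscle markers was 2.22 in subfertile cow 1 and 0.83 in fertile cow 4, the highest of each group, against -0.16 to 0.19 in the other subfertile cows and -1.60 to -0.05 in the other fertile cows. Its part in these readings was not tested. In a biopsy of mixed cells, fewer cells of a type and less RNA per cell cannot be told apart.

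**Figure D2:**
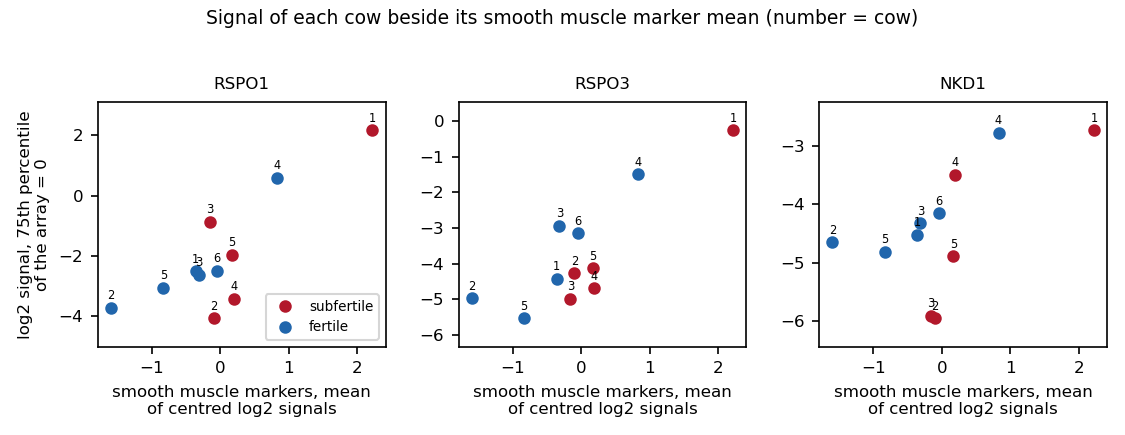
Log2 signal of RSPO1, RSPO3 and NKD1 (vertical axis, 75th percentile of the array at 0) against the mean of the centred smooth muscle markers (horizontal axis, log2) in 5 subfertile and 6 fertile cows, each point a cow with its number. Subfertile cow 1 and fertile cow 4 lie at the upper right of each panel, with marker means of 2.22 and 0.83.

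Few receptors passed the test. Of 25 probes of 12 genes 0 were higher by limma and 1 was lower, 4.0%, against 22.2% of all probes, and the groups overlapped on every receptor probe. At an unadjusted p below 0.05, 6 of the 25 passed, and 36 of all 87 tested member probes did. The share of all probes of the array at that cut was not counted, so that the 6 have none to be set against. The median difference over the 12 genes was 0.01, with a range of -0.67 to 0.68. With normexp correction the median was 0.61, and 17 of the 25 probes passed as higher under it, where 46.8% of all probes did so.

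FZD1, a Frizzled receptor, was the called receptor, and only on its brightest probe. It read 1.27, 1.37, 1.93, 1.40 and 1.52 in subfertile cows 1 to 5, and in fertile cows the lowest was 1.89, the median 2.15 and the highest 2.50. Subfertile cow 3 reached into the fertile range and the other 4 lay under it, a difference of -0.67 ± 0.15 (SE, adjusted p = 0.0112). The call was kept in the slide model (adjusted p = 0.0340), in every leave-one-out fit and with normexp correction (-0.77), but not in the day model (adjusted p = 0.129). The other 4 FZD1 probes were at 0.39, -0.20, 0.60 and 0.26 and did not pass. All 5 lie on the minus strand between chr4:7605290 and chr4:7608268 of Btau_3.1.

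FZD10, with the smallest p among the remaining receptors, read -5.32, -4.77, -5.08, -4.45 and -5.35 in subfertile cows, and in fertile cows the lowest was -6.63, the median -5.61 and the highest -5.13. Its difference of 0.68 ± 0.26 (SE, adjusted p = 0.0785) did not pass, while with normexp correction it was at 1.25 and passed (adjusted p = 1.18e-05). It was well above background on 4 of 5 subfertile and 5 of 6 fertile arrays. FZD8 was at 0.51 ± 0.20 (SE, adjusted p = 0.0872). FZD3, FZD4, FZD7 and FZD9 lay between -0.21 and 0.30 on their brightest probes. The co-receptors LRP5 and LRP6 were at -0.10 ± 0.17 and -0.04 ± 0.25 (SE). LGR4 and LGR5, which bind R-spondins, were at 0.22 ± 0.13 and -0.53 ± 0.67 (SE), and RNF43, which removes Frizzled from the cell surface, was at 0.35 ± 0.32 (SE). LGR5 was the most variable of the receptors, with -5.71, -7.43, -4.79, -4.35 and -3.84 in subfertile cows, and in fertile cows the lowest was -6.21, the median -4.67 and the highest -2.99. Some FZD probes resemble each other: a probe of FZD4 and a probe of FZD7 share 47 of 57 aligned bases, so that their readings may not be fully separate.

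The secreted antagonists held the most calls, in both directions. Of 14 tested probes 3 were higher and 6 lower, 64.3%, against 22.2% of all probes. That share counts the dim SFRP4 probe, which fertile arrays carried past the filter and which supports nothing. It also counts 3 SFRP1 probes, which read the same RNA. Of 8 genes on their brightest probe 2 were higher, 3 lower and 3 did not pass (62.5% called, against 22.1% of all genes). The median difference of the 8 genes was -0.41, with -0.48 under normexp correction and -0.49 under quantile normalization. DKK4 stood well above background on 0 of 11 arrays and was not tested. The brightness of different probes cannot be set against each other, so that no antagonist can be called the main one.

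SFRP4, a secreted Frizzled-related protein found in human endometrial stroma, read -3.64, -2.75, -3.31, -0.56 and -3.27 in subfertile cows 1 to 5 on its brighter probe, and in fertile cows the lowest was -1.14, the median -0.68 and the highest 1.22. Subfertile cows 1, 2, 3 and 5 lay below every fertile cow, and subfertile cow 4 lay inside the fertile range. The difference was -2.28 ± 0.57 (SE, adjusted p = 0.0162), or 4.87-fold lower, and -1.60 with normexp correction (adjusted p = 0.00808). Neither the slide model (adjusted p = 0.0537) nor the day model (adjusted p = 0.175) kept the call. The dimmer probe read -6.82, -7.49, -6.95, -3.71 and -7.30 in subfertile cows, well above background in cow 4 alone, and in fertile cows the lowest was -4.07, the median -3.57 and the highest -1.35. It passed the filter through the fertile arrays, so that its call is no second support, and with normexp correction it was at -0.24 (adjusted p = 0.568). Both probes are shown because both were highest in cow 4 of the subfertile group and they differ in how far they rise over background. They lie on chr4:51752397-51752456 and chr4:51752728-51752787 (Btau_3.1, minus strand), with the first 30 of 60 bases given and no capitals.
SFRP4 brighter probe: gggcaaagatgcttttgttcttacaatttg
SFRP4 dimmer probe: atcaaagctaggagtgctccaaagagcaca

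SFRP1, another secreted Frizzled-related protein, was lower on all 3 of its probes, which lie between chr27:38624465 and chr27:38627072 (Btau_3.1, minus strand). The brightest read 2.39, 2.99, 3.18, 3.33 and 2.61 in subfertile cows 1 to 5, and in fertile cows the lowest was 3.10, the median 3.85 and the highest 4.09. Fertile cow 6 was the lowest of its group and lay under subfertile cows 3 and 4, while the other 5 fertile cows lay above every subfertile cow. The difference was -0.84 ± 0.21 (SE, adjusted p = 0.0181). The next probe read -0.69, -0.39, -0.13, 0.03 and -0.60 in subfertile cows and had no overlap with the fertile cows, where the lowest was 0.30, the median 0.87 and the highest 1.37. It was at -1.21 ± 0.22 (SE, adjusted p = 0.00358), and was the only SFRP1 probe whose call was kept in the slide model (adjusted p = 0.0145). The third probe, at -0.64, -0.61, -0.11, -1.16 and -0.28 in subfertile cows, was likewise below all fertile cows, where the lowest was -0.09, the median 0.34 and the highest 1.39, with a difference of -0.99 ± 0.27 (SE, adjusted p = 0.0231), which missed the threshold once subfertile cow 2 was left out (adjusted p = 0.0525). Normexp correction gave -0.96, -1.19 and -0.92, and all 3 passed.

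DKK3, a divergent member of the Dickkopf family, read 0.19, 0.95, 1.43, 1.93 and 0.83 in subfertile cows 1 to 5, and in fertile cows the lowest was 1.17, the median 2.24 and the highest 2.91. Subfertile cows 3 and 4 and fertile cows 5 and 6 lay in the range that the groups share. The difference was -1.10 ± 0.34 (SE, adjusted p = 0.0379), and it did not pass in the slide model (adjusted p = 0.0949) or without any of 8 cows (subfertile 1, 2 or 5, fertile 1, 2, 3, 4 or 5; adjusted p up to 0.0813). Subfertile cow 4 was the highest of its group for SFRP4, SFRP1 and DKK3 on the brightest probes, and subfertile cow 1 the lowest. The next SFRP1 probe had the same highest and lowest cow. On the third SFRP1 probe cow 4 was instead the lowest and cow 3 the highest. On the dimmer SFRP4 probe cow 4 was again the highest, but cow 2 was the lowest. The epithelial minus stromal marker mean was 0.81, 0.45, 0.05, 0.52 and 0.17 in subfertile cows 1 to 5. Its part in these readings was not tested.

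WIF1, which binds WNT ligands outside the cell, was higher on both probes. The brighter read -1.76, -1.54, -2.64, -2.98 and -1.90 in subfertile cows 1 to 5, and in fertile cows the lowest was -4.51, the median -3.85 and the highest -2.65. Fertile cow 2 reached the subfertile range and the other 5 fertile cows lay below it, a difference of 1.56 ± 0.33 (SE, adjusted p = 0.00814), or 2.95-fold. The dimmer read -2.64, -2.40, -3.31, -4.01 and -3.08 in subfertile cows, and in fertile cows the lowest was -4.77, the median -4.69 and the highest -3.25, and was at 1.32 ± 0.33 (SE, adjusted p = 0.0162). Fertile cow 2 was again the highest fertile cow. In the slide model the brighter probe kept its call (adjusted p = 0.0449) and the dimmer did not (adjusted p = 0.0748). Both passed with normexp correction, at 1.49 and 1.36. The probes lie on chr5:52701871-52707762 and chr5:52697260-52701830 (Btau_3.1, plus strand), spans longer than the 60 bases of a probe.

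SFRP5 read -1.60, -2.05, -2.26, -2.34 and -2.27 in subfertile cows 1 to 5, and in fertile cows the lowest was -3.11, the median -2.78 and the highest -2.30. Subfertile cow 1 was the highest of all cows, and fertile cow 5 lay just above subfertile cow 4. The difference was 0.63 ± 0.18 (SE, adjusted p = 0.0295), kept in the slide model (adjusted p = 0.0455) and with normexp correction (0.78), and lost without subfertile cow 1 or 2 or fertile cow 1, 3 or 4 (adjusted p up to 0.0658). SFRP2 and DKK2 were at 0.01 ± 0.29 and 0.16 ± 0.61 (SE). DKK1, the best-known inhibitor of the LRP co-receptors, read -0.59, -2.51, -0.36, -0.25 and -2.03 in subfertile cows, and in fertile cows the lowest was -2.32, the median 0.28 and the highest 1.1. Its low cows were subfertile cows 2 and 5 and fertile cow 6, and the difference of -1.11 ± 0.61 (SE, adjusted p = 0.212) did not pass on this or on the other DKK1 probe (adjusted p = 0.203).

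**Figure D3:**
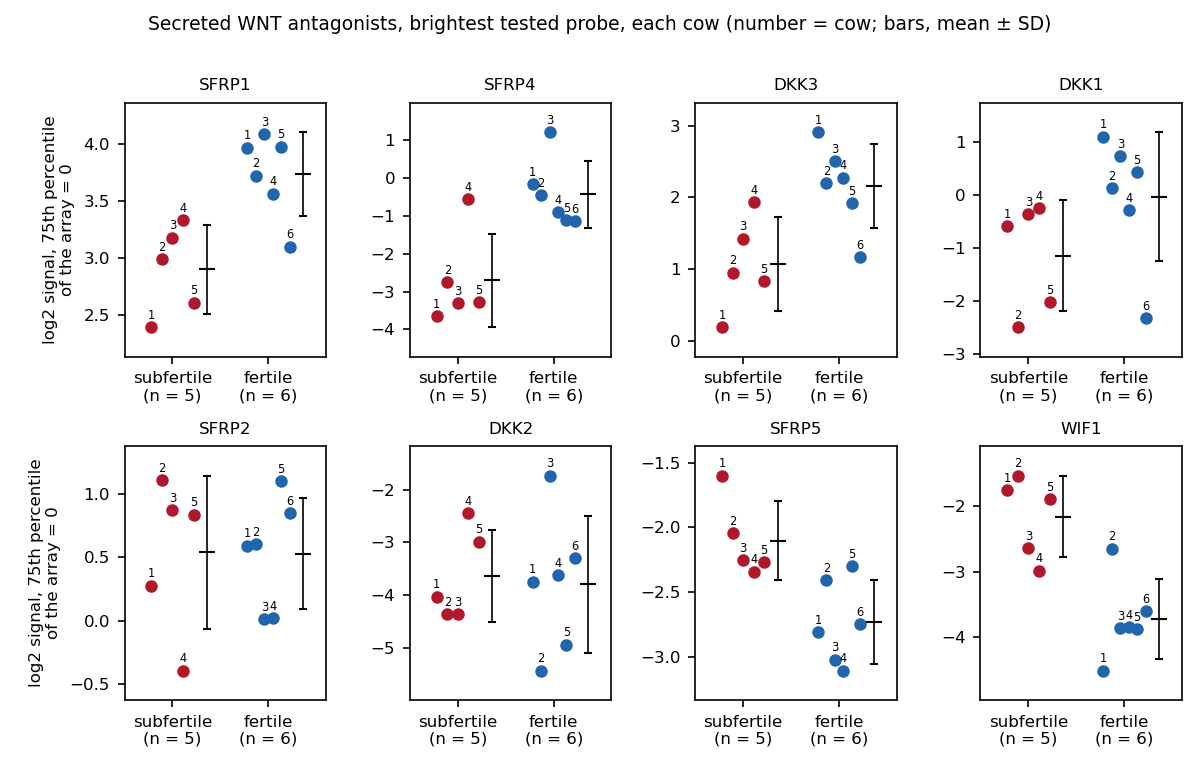
Log2 signal (75th percentile of the array at 0) of the 8 tested secreted antagonists on their brightest probes, in 5 subfertile and 6 fertile cows. Points are cows with their number and bars are the mean ± SD of a group. SFRP1, SFRP4 and DKK3 were lower and WIF1 and SFRP5 higher in subfertile cows, with overlap in every panel.

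In the cytoplasmic relay 4 probes of 14 were higher and 0 lower (28.6%, against 22.2% of all probes), and they belonged to AXIN1, AXIN2 and DVL2. AXIN1, the scaffold of the β-catenin destruction complex, had the smallest spread of the called genes in subfertile cows, at -0.43, -0.33, -0.41, -0.33 and -0.42 in cows 1 to 5. In fertile cows the lowest was -1.40, the median -1.21 and the highest -0.82. The groups stood apart, with a difference of 0.79 ± 0.11 (SE, adjusted p = 0.00109), or 1.74-fold, kept in the slide (adjusted p = 0.00568) and day models (adjusted p = 0.0256), with normexp correction (0.78) and in every leave-one-out fit. Fertile slide 2 minus fertile slide 1, 2 cows each, was -0.09 for this gene.

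AXIN2, a related scaffold and a widely used target gene of β-catenin, read -1.17, -1.80, -1.64, -1.14 and -2.04 in subfertile cows 1 to 5 on its brighter probe, and in fertile cows the lowest was -2.82, the median -2.64 and the highest -2.24. The groups stood apart with subfertile cows above, by 1.02 ± 0.18 (SE, adjusted p = 0.00371) or 2.03-fold, kept in the slide model (adjusted p = 0.0160) and not in the day model (adjusted p = 0.0731). The dimmer probe was called at 1.30 ± 0.27 (SE, adjusted p = 0.00673), likewise without overlap, although it was well above background on only 3 of 5 subfertile and 2 of 6 fertile arrays. The dimmer AXIN2 probe is shown with the AXIN1 probe because both were called higher and they lie in a stretch that the genes share. Capitals mark the 35 identical bases of 44 aligned, 79.5%. The AXIN1 probe is on chr25:766708-767395 (Btau_3.1, minus strand), and the files give no position for the AXIN2 probes.
AXIN1: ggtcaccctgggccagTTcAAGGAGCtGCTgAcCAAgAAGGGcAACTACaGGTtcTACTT
AXIN2 dimmer probe: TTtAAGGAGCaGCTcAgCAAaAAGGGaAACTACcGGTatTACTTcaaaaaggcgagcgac

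DVL2, a Dishevelled protein that carries the signal from Frizzled to the destruction complex, had probes that parted in sign. Its second probe read -0.60, -0.50, -0.62, -0.86 and -0.78 in subfertile cows 1 to 5, and in fertile cows the lowest was -1.64, the median -1.28 and the highest -1.22. It was higher without overlap, at 0.68 ± 0.11 (SE, adjusted p = 0.00239), and kept its call in the slide and day models (adjusted p = 0.00918 and 0.0397). The brightest DVL2 probe was at -0.41 ± 0.18 (SE, adjusted p = 0.120) and did not pass, and the dimmest was at 0.17. DVL3, APC and GSK3B were at 0.12 ± 0.17, 0.03 ± 0.19 and 0.19 ± 0.14 (SE) on their brightest probes, and NKD1 at -0.39 ± 0.59 (SE). GSK3B, the kinase of the complex, was the most even reading in subfertile cows, at 1.84, 1.83, 1.81, 1.81 and 1.89.

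Among the nuclear effectors each of the 8 genes had 1 called probe, 4 higher and 4 lower of 20 probes (40.0%, against 22.2% of all probes). The lower calls of PYGO1 and TCF7L2 were among those that fertile arrays carried past the filter, and on brightest probes 1 gene was higher, 1 lower and 6 did not pass. BCL9, the adaptor that ties β-catenin to PYGO proteins, read 2.35, 1.80, 2.0, 1.54 and 1.79 in subfertile cows 1 to 5, and in fertile cows the lowest was -0.36, the median 0.44 and the highest 1.29. The groups did not overlap, at 1.44 ± 0.30 (SE, adjusted p = 0.00734) or 2.70-fold, a call kept in the slide model (adjusted p = 0.0116) and not in the day model (adjusted p = 0.0627). As for WNT5A, fertile cows 2 and 5 on a shared slide were the highest of their group, 1.52 above fertile cows 1 and 3.

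**Figure D4:**
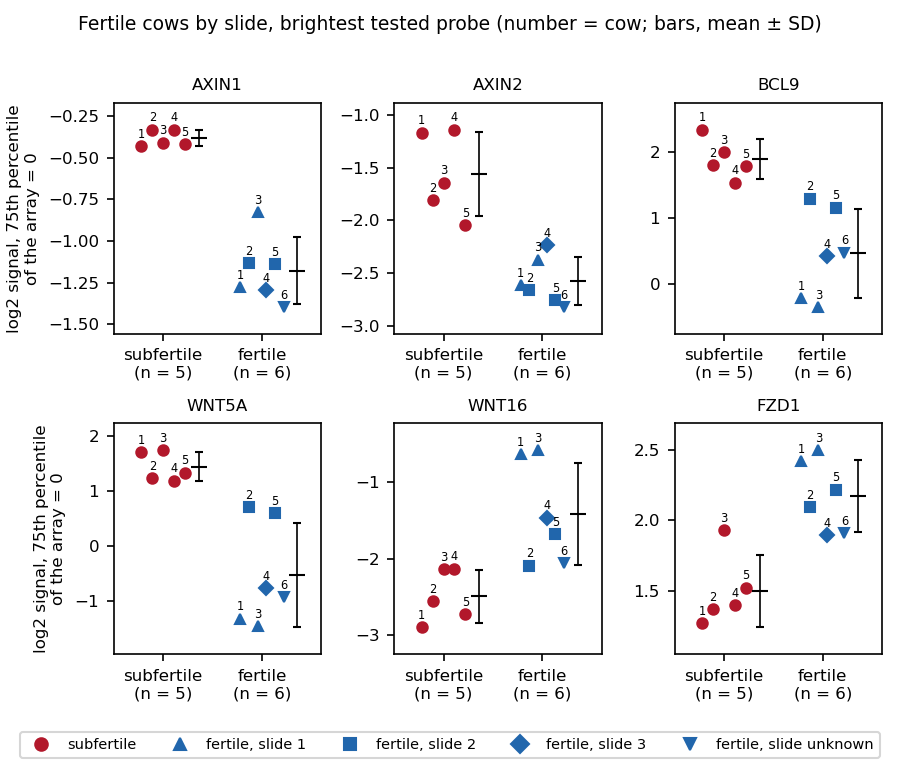
Log2 signal (75th percentile of the array at 0) of AXIN1, AXIN2, BCL9, WNT5A, WNT16 and FZD1 on their brightest probes in 5 subfertile and 6 fertile cows, with the slide of each fertile cow as the shape of its point and bars for the mean ± SD of each group. Fertile slide 2 minus slide 1 was 2.04 for WNT5A, 1.52 for BCL9 and -0.09 for AXIN1.

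CTNNB1, which encodes β-catenin, was measured by 4 probes, and the call was on the dimmest. This probe read -1.52, -1.67, -1.58, -1.82 and -2.0 in subfertile cows 1 to 5, and in fertile cows the lowest was -2.70, the median -2.48 and the highest -2.17, with no overlap and a difference of 0.72 ± 0.13 (SE, adjusted p = 0.00404). The other 3 probes were at 0.31 ± 0.12, -0.25 ± 0.12 and 0.10 ± 0.12 (SE) and did not pass, so that the β-catenin transcript has no settled difference. The called probe spans chr22:14168022-14171038 (Btau_3.1, plus strand), upstream of the others, which lie from 14177773 to 14178412.

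PYGO1 and PYGO2, nuclear partners of BCL9, were each called on 1 probe. The second of the 3 PYGO1 probes read -4.91, -6.62, -5.59, -6.23 and -6.27 in subfertile cows 1 to 5, well above background in 2 of them, and in fertile cows the lowest was -3.87, the median -3.20 and the highest -2.91. It passed the filter through the fertile arrays, so that its call (adjusted p = 3.76e-04) rests partly on readings not above background, and with normexp correction it was at -0.23 (adjusted p = 0.283). The other PYGO1 probes were at -0.35 ± 0.19 and -0.15 ± 0.22 (SE). The 3 PYGO1 probes are shown because only 1 of them was called. They lie on chr10:55703375-55703434, chr10:55701907-55701966 and chr10:55702420-55702479 (Btau_3.1, plus strand), and their first 30 bases are given without capitals.
PYGO1 brightest probe: gtctttccaggatgtctgtttgtacagcta
PYGO1 called probe: caatcagattcctccgcagaatgctagcca
PYGO1 dimmest probe: tgccatcttatgtgaagcctcttgtcagaa

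PYGO2 was called on its dimmer probe, which read -2.42, -2.79, -3.12, -2.95 and -2.77 in subfertile cows 1 to 5, and in fertile cows the lowest was -3.62, the median -3.50 and the highest -3.40. The fertile cows lay close together and all below the subfertile cows, with a difference of 0.69 ± 0.12 (SE, adjusted p = 0.00322). The brighter PYGO2 probe was at 0.06 ± 0.14 (SE, adjusted p = 0.785).

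The DNA-binding factors LEF1, TCF7, TCF7L1 and TCF7L2 had small or divided differences. TCF7 read -1.17, -1.01, -1.28, -1.29 and -1.45 in subfertile cows 1 to 5 on its brighter probe, and in fertile cows the lowest was -1.08, the median -0.90 and the highest -0.62. Subfertile cow 2 lay inside the fertile range, and the difference of -0.36 ± 0.11 (SE, adjusted p = 0.0450) was lost with normexp correction (-0.25), in the slide model (adjusted p = 0.108) and without any of 8 cows (subfertile 1, 3, 4 or 5, fertile 2, 4, 5 or 6; adjusted p up to 0.107). LEF1 was called on its dimmer probe, with -3.44, -4.14, -4.62, -3.88 and -4.27 in subfertile cows, and in fertile cows the lowest was -3.54, the median -3.40 and the highest -2.92. Subfertile cow 1 lay inside the fertile range and the other 4 below it, a difference of -0.76 ± 0.20 (SE, adjusted p = 0.0195), which was 0.15 with normexp correction (adjusted p = 0.257), and the brighter LEF1 probe was at -0.07 ± 0.22 (SE).

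TCF7L1 was called on its second probe, with -1.30, -0.60, -1.15, -1.20 and -1.05 in subfertile cows 1 to 5, and in fertile cows the lowest was -1.82, the median -1.64 and the highest -1.22. Subfertile cow 1 and fertile cow 5 lay in the range that the groups share, and the difference was 0.52 ± 0.15 (SE, adjusted p = 0.0276), against 0.18 ± 0.14 (SE, adjusted p = 0.385) on the brighter probe, with which it shares 23 bases. It was lost in the slide model (adjusted p = 0.0838) and without subfertile cow 2 or 5 or fertile cow 1 or 4 (adjusted p up to 0.0621). For TCF7L2 the dimmest of 4 probes stood well above background on 0 of 5 subfertile and 6 of 6 fertile arrays. It read -6.66, -7.11, -6.87, -6.82 and -7.47 in subfertile cows, and in fertile cows the lowest was -5.89, the median -5.43 and the highest -4.85. On processed signal alone it was at least 1.31-fold lower in subfertile cows, a bound that does not hold with normexp correction. The mean signals were -6.99 ± 0.32 (SD, n = 5) in subfertile and -5.40 ± 0.38 (SD, n = 6) in fertile cows. Its adjusted p of 7.46e-04 is no support for a difference, as for WNT5B, and with normexp correction it passed the other way, at 0.93 (adjusted p = 2.89e-04). The brightest probe under this name lies on chromosome 24, and its accession now belongs to TCF4, while the others lie on chromosome 26. Neither it (-0.08 ± 0.21, SE) nor the next brightest (0.11 ± 0.17, SE) passed.

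The calls were also set against the signal over background. Of the 25 called probes 20 were well above background on all 11 arrays, and 17 of these passed in the same direction with normexp correction, 11 higher and 6 lower. All 12 higher calls were kept under that correction, which called 46.8% of all probes higher and 6.78% lower, so that keeping a higher call says little. Of the 13 lower calls 6 were kept, 5 did not pass and 2, the dim WNT5B and TCF7L2 probes, passed in the opposite direction. Relative to the shift of the median, 23 of the 25 had the same sign under both. All 25 calls were kept with quantile normalization, and how many of the calls over all probes were kept was not counted. In 26 genes with several tested probes 15 had differences of a single sign and 0 had calls in opposite directions. Of these genes 4 were called on every probe (AXIN2, SFRP1, SFRP4 and WIF1) and 11 on some. Such counts were not made over all genes of the array, so that they have no share to be set against. Among probes well above background on all arrays 19 genes had several, and SFRP1 and WIF1 were called on each of theirs; the dimmer SFRP4 and AXIN2 probes were not among these. Probes of a gene read the same RNA and are not separate evidence of a difference between cows.

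**Figure D5:**
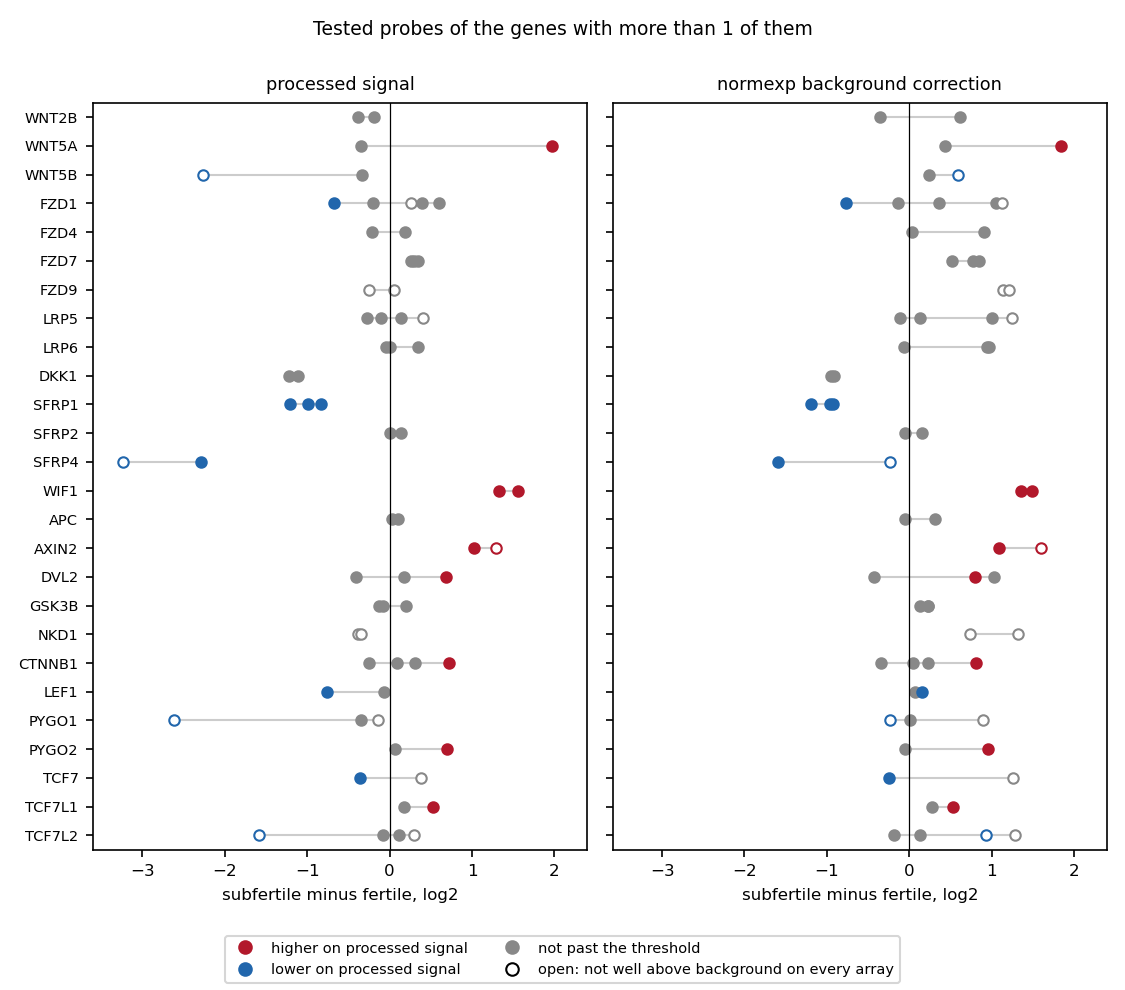
Difference between subfertile and fertile cows (log2, subfertile minus fertile, n = 5 and n = 6) for each tested probe of the 26 genes with more than 1, from processed signal at the left and normexp-corrected signal at the right. Each point is a probe, colours give the call on processed signal in both panels, and open points were not well above background on every array. SFRP1, WIF1 and the brighter probes of SFRP4 and AXIN2 keep their side in both panels, and the dim WNT5B and TCF7L2 probes change sides.

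Further genes of the pathway were counted from a separate list of 48, of which 40 were tested. On their brightest probes 5 were higher, 3 lower and 32 did not pass, 20% called against 22.1% of all genes, with a median difference of 0.06. PORCN, the enzyme that attaches the lipid WNT ligands need for secretion, was higher by 0.78 ± 0.13 (SE, adjusted p = 0.00247). TNIK, a kinase that acts on TCF factors, was higher by 0.75 ± 0.16 (adjusted p = 0.00775), and FRZB, a relative of the SFRP proteins, by 0.99 ± 0.25 (adjusted p = 0.0172). TLE4, a co-repressor that binds TCF factors, was at -1.24 ± 0.22 (adjusted p = 0.00346), and at -0.23 with normexp correction (adjusted p = 0.321). RYK, a WNT co-receptor, was at -0.44 ± 0.10 (adjusted p = 0.00828). PORCN and FRZB passed on 1 of 2 probes each, TNIK on 2 of 2, RYK on 2 of 4, and TLE4 on its only tested probe. FRZB was lost in the slide model (adjusted p = 0.0526), and in the day model PORCN alone of these 5 kept its call (adjusted p = 0.0390), with 0.0536 to 0.159 for the other 4.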

How the data were processed

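Endometrial RNA of 11 cows was labelled with Cy3 and hybridised to 1-colour Agilent arrays, per the labels' protocols. The submitters' processing notes name Agilent Feature Extraction 10.5.1.1 for the scans. The deposited scanner files give a processed intensity, mean and background signals and detection flags for each spot on a linear scale. Probe positions on HGSC Btau_3.1 and probe sequences are those of the files. A second file that the authors deposited holds log2 values; relative to the other arrays, 100% of the values in it match those of the scanner to within 0.01, except in fertile cow 1 (16.9%), and it was used as an alternative. For fertile cow 6 the scanner file has no header, rounded signals and gene names out of register (3 match), so that names were joined by probe.

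Processed signals were taken to log2 and set to the 75th percentile of non-control probes of each array. Outlier spots were left out. Probes well above background on at least 5 of 11 arrays were tested between groups in R 4.3.3 by limma 3.58.1, using lmFit and then eBayes with no covariate. Adjustment was by Benjamini-Hochberg over 31877 probes, at a threshold of 0.05. The test was also run on simulated data with the means and spreads of these probes. A gene is represented by its brightest tested probe. Values by cow are given for every member with a called probe and for the 2 genes with the smallest p in each role. The spread of RSPO1, RSPO3, NKD1, WNT2, DKK1 and LGR5 and the even reading of GSK3B were described after their values were seen. Of the other pathway genes the 5 with the smallest adjusted p are named. For a probe dim on all arrays of a group the fold given is a bound on processed signal, set against the lowest signal well above background. Marker means were compared with an exact permutation test over cows. The members, lists and tests were chosen with earlier results of these data known. Alternatives were normexp correction (offset 50), quantile normalization, median centring, the authors' table, 3 other filters on dim probes, slide, scan day or replicate number as blocks, a trended robust variance, a threshold of 0.01, the mean of a gene's probes, and leaving out each cow.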

Additional observations from a re-analysis of the deposited data

Results flagged for a closer look

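Samples far from the rest of their group were looked for in 22 items, the marker mean and the named members on their brightest probe, with Dixon's test in both groups. Of 44 groups 2 held such a sample, 4.55%, and chance alone marks about 1 in 20. SFRP4 was at -0.56 in subfertile cow 4, far above the other subfertile cows, the nearest of which was at -2.75; the gap was 0.711 of the range of the group, just past the critical value of 0.710. The epithelial minus stromal marker mean was -0.98 in fertile cow 3, far below the nearest fertile cow at -0.33. The cause was not tested for either.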

How the results depend on the processing

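Over all probes the 7067 calls became 17082 with normexp correction, 12179 with no filter on dim probes, 3672 and 977 with a random block for slide or for scan day, 2626 at a threshold of 0.01, and 4527 to 7298 when a cow was left out, the fewest without subfertile cow 2. The 12 higher member probes became 40 with normexp correction and 3 with the block for scan day, and were 10 to 12 when a cow was left out. The 13 lower member probes became 6 with the block for slide, 3 with that for scan day and 5 at a threshold of 0.01, and were 10 to 16 when a cow was left out. Under the other alternatives these counts stayed within 1.5 times, and the mean of a gene's probes gave 6 genes higher and 6 lower. The difference in marker mean was 0.62 to 0.91 under the other normalizations and 0.61 to 0.82 when a cow was left out, in the same direction and past the threshold each time. The replicate numbers of the labels do not pair the cows (correlation of deviations -0.21 to 0.22), and the replicate block gave 4762 calls in all and 10 higher and 11 lower member probes; SFRP4 (adjusted p = 0.0501), SFRP5 (0.0634) and TCF7 (0.0910) missed the threshold with it. The cause of these shifts was not tested. Signal over background limits the reading of probes that were dim in subfertile cows.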
